A study of Drosophila melanogaster with 36 samples.

Results

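After 8 h in methyl methanesulfonate (MMS), Kc167 cells held more of 10 of the 11 transcripts of delta-class glutathione S-transferases, enzymes that conjugate foreign compounds, with GstD5 25.3-fold higher. They held less of 23 of 42 transcripts of DNA replication and 19 of 39 of mitosis, nearly all of these by less than 2-fold. The comparison is of 4 arrays labelled MMS at 8 h with 4 arrays labelled control at 8 h, and these 8 arrays are 8 of the 36 in the series. They were chosen by their labels alone and not by any measured value. All cultures were Kc167 cells, a line derived from fly embryos that has features of hemocytes, the blood cells of the fly. Medium was exchanged for fresh medium in every culture, and the MMS cultures received 40 µg/mL of the agent in it, whereas the control cultures received none. The series holds 9 such groups of 4 arrays, with control at 0, 1, 8, 24 and 72 h and MMS at 1, 8, 24 and 72 h. Per the design text the 4 arrays of a group stand for cultures grown apart, and all come from a single cell line, and the p-values therefore speak of variation among its cultures.

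MMS transfers methyl groups to DNA bases and to other nucleophiles of the cell, among them glutathione. Cells meet such electrophiles by conjugating them to glutathione or sugars and by exporting the conjugates, and in flies the transcription factor cap-n-collar (cnc, the fly Nrf2) drives many of these enzymes once its inhibitor Keap1 lets go of it. Methylated bases that block replication forks call on DNA repair and on checkpoints that hold back S phase and mitosis. Stress on protein folding raises heat-shock chaperones, and stress on translation acts through phosphorylation of the initiation factor eIF2 and the transcription factor cryptocephal (crc, the fly ATF4).

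Each value below is a log2 expression value of an Affymetrix Drosophila Genome 2.0 array, where a difference of 1 is 2-fold. Changes are MMS minus control at 8 h ± SE with n = 4 arrays per group, adjusted p-values come from limma, and a gene was counted as changed at least 2-fold where its adjusted p was under 0.05 as well. Array values were scaled to a common distribution, so every change is relative to the other genes, and a change in RNA per cell and one in cell number cannot be told apart. Of the 12 hemocyte markers examined, 10 had a control mean of at least 7, against array medians of 5.48 to 5.63 over genes. Hml read 11.36, srp 10.40 and Col4a1 9.82 in control, and the lowest of the 12, NimC1, read 5.64. In a longer list of 29 hemocyte receptor and matrix genes, 19 had a control mean of at least 7 and 6 had one under 5. The 8 h arrays differed from all others in RNA quality. The mean difference between 3' and 5' probe sets of 3 control transcripts lay between 1.42 and 1.67 on them and between 0.50 and 0.72 on the other 28 arrays, and the 5' probe set of 18S rRNA read 10.56 to 11.33 against 3.44 to 6.65 elsewhere. Between the 2 groups at 8 h the mean 3' to 5' difference was 0.08 higher with MMS (1.63 ± 0.05 against 1.55 ± 0.10, SD, n = 4, two-sided exact permutation p = 0.143), and the 18S value was 0.23 lower (exact permutation p = 0.286). For the eIF4a control transcript alone the difference was 0.16 higher with MMS, with all 4 MMS arrays above all 4 control arrays (exact permutation p = 0.0286, the smallest that 4 against 4 allows). With this mean difference as a covariate within the 8 arrays, 175 genes were at least 2-fold higher and 56 lower, against 121 and 37 without it.

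Of 11982 genes, 121 (1.01%) were at least 2-fold higher after 8 h of MMS and 37 (0.309%) at least 2-fold lower. Without the requirement on fold, 1060 genes (8.85%) were higher and 1375 (11.5%) lower. Increases were fewer than decreases, but more of them reached 2-fold, and the median change over all genes was -0.02. All 4 MMS arrays lay above all 4 control arrays for 109 of the 121 higher genes and below them for all 37 lower genes. These genes were picked on the same arrays, so nothing is read from this against the 9.66% and 14.8% of all genes that were separated in these directions. Single arrays moved the counts both ways, and without control replicate 1 there were 80 genes at least 2-fold higher and 26 lower. Without control replicate 3 there were 161 and 52, and without MMS replicate 1 there were 163 and 50. Of the 158 genes, 93 kept both thresholds in all 8 fits that left out a single array, and 145 kept the adjusted p.

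**Figure D1:**
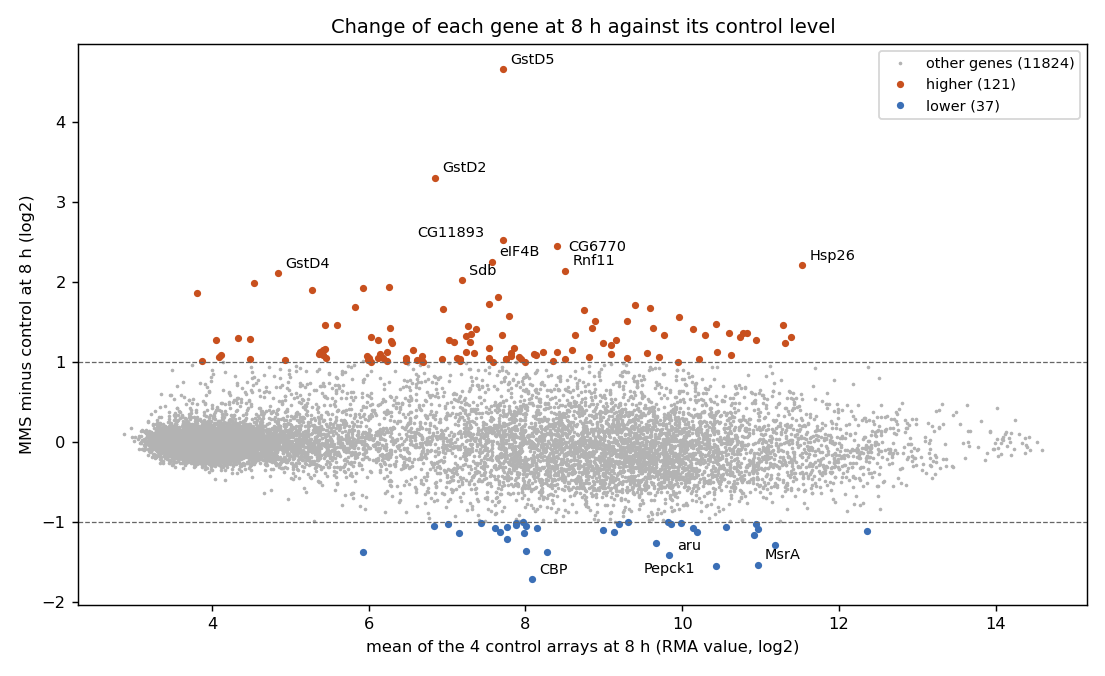
Change of each of 11982 genes at 8 h (y axis, MMS minus control, log2) against its mean on the 4 control arrays (x axis, log2). Dashed lines mark 2-fold, the 121 higher and 37 lower genes are coloured, and GstD5 stands apart at 4.66 with a control mean of 7.71.

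Glutathione S-transferases, which join glutathione to electrophiles, held the 2 largest increases of the comparison. GstD5 read 8.13, 7.69, 7.42 and 7.59 in control replicates 1 to 4 and 12.33, 12.59, 12.31 and 12.26 in MMS replicates 1 to 4. Every MMS array stood over 4 log2 units above every control array, and the change was 4.66 ± 0.18 (adjusted p = 4.43e-19). GstD2 read 7.18, 6.91, 6.71 and 6.57 in control and 9.97, 10.37, 10.21 and 10.03 with MMS, again with no overlap, a change of 3.3 ± 0.18 (adjusted p = 7.03e-15). GstD4 was low in control (4.65, 4.79, 4.87 and 5.05) and reached 6.67, 7.15, 6.95 and 7.04 with MMS, 4.33-fold higher (2.11 ± 0.15, adjusted p = 1.03e-12). Of the 11 delta-class genes, 10 rose (median over all 11 of 0.94), against 8.85% of all genes, and 5 of these at least 2-fold, against 1.01%. GstD6 (1.28 ± 0.17) and GstD7 (1.05 ± 0.13) completed the latter, and GstD8 (0.94 ± 0.10), GstD10 (0.91 ± 0.12), GstD3 (0.80 ± 0.12), GstD11 (0.75 ± 0.15) and GstD1 (0.42 ± 0.07) rose by less. GstD1 already read 13.96 to 14.08 in control. GstD9 alone did not pass, with 11.20 to 11.67 in control and 11.64 to 11.77 with MMS (0.30 ± 0.18, adjusted p = 0.275). Members of the class have similar sequences, and whether RNA of a member reaches the probes of another was not tested.

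The epsilon and other classes changed less uniformly. Of 13 epsilon-class genes 7 rose and 0 fell, led by GstE3 (9.36 to 9.46 in control, 11.07 to 11.17 with MMS, 1.71 ± 0.17, adjusted p = 4.23e-09) and GstE7 (1.46 ± 0.17, adjusted p = 1.62e-07). GstE1 (0.94 ± 0.11) and GstE2 (0.75 ± 0.13) followed. Of 12 genes in the remaining classes 4 rose (33.3%) and 1 fell (8.33%), where 8.85% of all genes rose and 11.5% fell. GstS1, the only sigma-class gene of the fly, read 5.95, 6.28, 6.37 and 6.51 in control and 7.66, 7.68, 7.74 and 7.72 with MMS, so the groups were well apart (1.43 ± 0.12, adjusted p = 1.15e-10). The omega-class genes se (0.78 ± 0.11), GstO2 (0.62 ± 0.13) and GstO3 (0.34 ± 0.11) rose, and both probe sets of GstO2 passed, at 0.62 and 1.18. GstT4, a theta-class gene, moved the other way (9.0 to 9.25 in control, 7.95 to 8.27 with MMS, -1.0 ± 0.13, adjusted p = 4.79e-07).

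Glutathione supply and its regulators showed a single large increase. Gclc, the catalytic subunit of the enzyme that limits glutathione synthesis, read 9.54, 9.64, 9.63 and 9.69 in control and 11.03, 11.14, 11.02 and 11.02 with MMS. The arrays of each group lay within 0.2 of each other, and the change was 1.43 ± 0.14 (adjusted p = 6.34e-09). Its modifier subunit Gclm read 5.62 to 5.98 in control and 5.61 to 5.85 with MMS (-0.06 ± 0.13, adjusted p = 0.822). The malic enzyme Men, a source of NADPH, fell by 0.84 (SE 0.10, adjusted p = 3.56e-07). Gclc and Men were the 2 changes among the 10 measured genes of the Keap1-cnc, glutathione synthesis and NADPH list. The shares of this list, 10% higher and 10% lower, were close to the 8.85% and 11.5% of all genes. CG10365, listed with the synonym Chac1 after the ChaC enzymes that break down glutathione in mammals and yeast, was among the 12 largest decreases. It read 8.75, 8.22, 8.00 and 8.15 in control and 7.01, 6.68, 7.01 and 6.90 with MMS, 2.60-fold lower (-1.38 ± 0.14, adjusted p = 3.78e-09).

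Of the transcripts of 6 stress regulators examined here beside Keap1, crc alone passed the test in the fit of all arrays. cnc read 10.26, 10.60, 11.02 and 10.62 in control and 10.76, 11.03, 11.15 and 11.03 with MMS, so the groups overlapped (0.37 ± 0.19, adjusted p = 0.2). With the 3' to 5' difference as a covariate its change was 0.51 (adjusted p = 0.0319), and its second, dim probe set gave -0.01. Keap1 was -0.18 ± 0.14 (adjusted p = 0.449) and maf-S, the partner of cnc, 0.29 ± 0.20 (adjusted p = 0.356). For maf-S all MMS arrays (10.21 to 10.43) were above all control arrays (9.96 to 10.13), and with the 8 arrays fitted alone its adjusted p was 0.0219. The forkhead factor foxo behaved alike in the other direction, with -0.63 ± 0.28 (adjusted p = 0.108) in the fit of all arrays and an adjusted p of 0.00115 with the 8 arrays alone. Neither Hsf, the heat-shock factor (-0.06 ± 0.13, adjusted p = 0.802), nor p53 (0.19 ± 0.11, adjusted p = 0.269) passed. crc did, with 12.44 to 12.68 in control and 12.84 to 13.05 with MMS (0.46 ± 0.08, adjusted p = 3.76e-05).

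**Figure D2:**
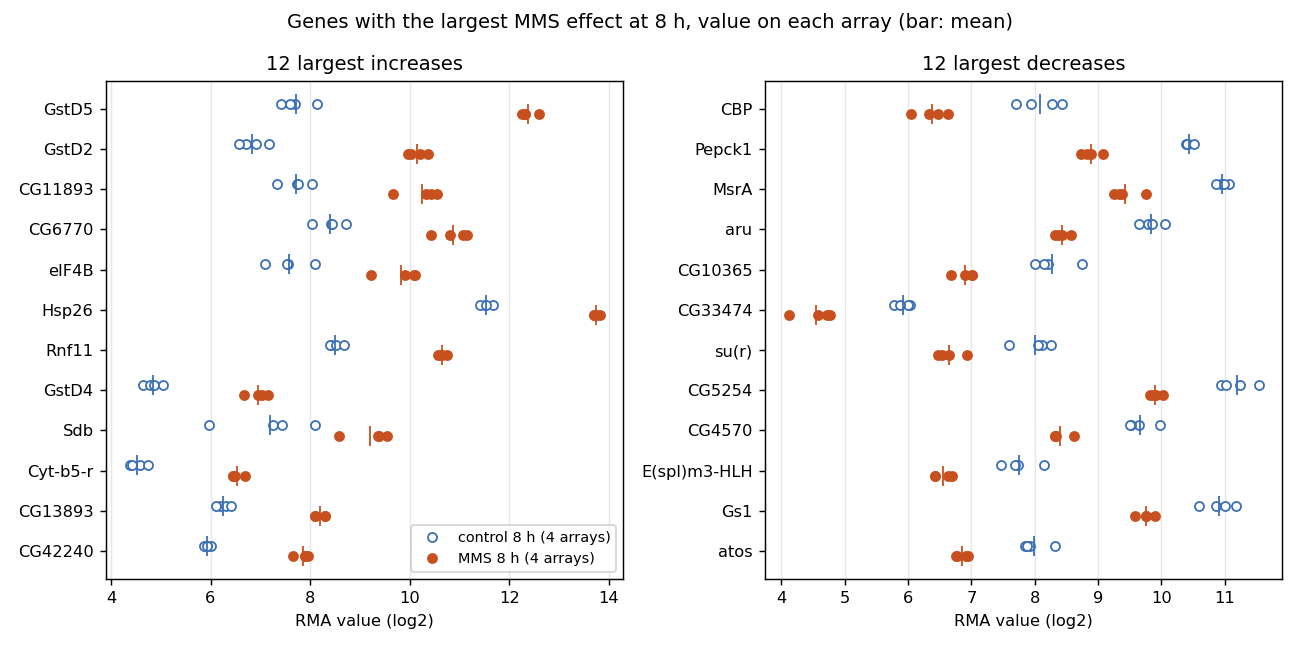
Log2 value on each array (x axis) of the 12 largest increases and 12 largest decreases whose groups do not overlap. Open circles are the 4 control arrays, filled circles the 4 MMS arrays and vertical bars the group means, and Sdb has the widest control spread, from 5.97 to 8.10.

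The other enzymes of detoxification rose in part. Of 35 UDP-glycosyltransferases, which attach sugars to small molecules, 10 rose and 0 fell (28.6% higher, against 8.85% of all genes), and 23 of the 35 had a control mean under 5. Ugt35C1 led with 1.72 ± 0.12 (adjusted p = 1.85e-12), followed by Ugt37C2 (1.27 ± 0.13), Ugt302K1 (1.24 ± 0.13) and Ugt37D1 (1.05 ± 0.10). Of 80 cytochrome P450 genes, which oxidise lipophilic compounds, 16 rose and 3 fell, and over all genes 8.85% rose and 11.5% fell. Of the 80, 54 had a control mean under 5. Cyp6d4 read 9.89 to 10.05 in control and 10.78 to 11.09 with MMS (1.00 ± 0.08, adjusted p = 2.16e-11), Cyp4e2 rose by 0.91 ± 0.09, Cyp6a23 by 0.91 ± 0.10 and Cyp6a20 by 1.13 ± 0.13. The falling P450 genes were Cyp6v1 (-0.71 ± 0.09), Cyp304a1 (-0.64 ± 0.12) and Cyp6u1 (-0.53 ± 0.11), chosen for mention after their values were seen. Of 15 multidrug ABC transporters, which export conjugates, 5 rose and 0 fell, and 9 of the 15 had a control mean under 5. rdog read 10.23 to 10.33 in control and 11.55 to 11.73 with MMS (1.34 ± 0.17, adjusted p = 5.65e-07). CG7627 (0.79 ± 0.20) and MRP (0.77 ± 0.24) rose as well. Mdr50 rose by 0.33 ± 0.09 at a low level, from a mean of 3.51 in control to 3.85 with MMS, and its groups overlapped. The esterases, epoxide hydrolases and oxidases did not share this direction, with 1 of 19 higher and 3 lower, among them the epoxide hydrolase Jheh2 (-0.56 ± 0.08).

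Genes of the ecdysteroid kinase-like family, which the gene table marks by a Dro number among the synonyms, made up 7 of the 121 genes at least 2-fold higher (1.01% of all genes). The family was picked after the values were seen and its count is a description. Of 46 measured members, 15 rose (32.6%, against 8.85% of all genes) and 3 fell, and 33 had a control mean under 5. CG11893, the third largest increase of the comparison, read 7.34, 7.74, 8.04 and 7.76 in control and 9.66, 10.54, 10.44 and 10.32 with MMS (2.52 ± 0.16, adjusted p = 2.62e-13). Its neighbour CG13658 was near the bottom of the range in control (3.63 to 3.90) and at 5.62 to 5.71 with MMS (1.87 ± 0.10, adjusted p = 1.41e-15). CHKov2 (1.52 ± 0.13), CG5644 (1.43 ± 0.11), CHKov1 (1.42 ± 0.35), CG32195 (1.33 ± 0.12) and CG6834 (1.06 ± 0.15) were the others. Among the measured genes in chromosomal order, 21 of the 121 higher genes stood in 9 runs of directly adjacent higher genes. The 37 lower genes, only 0.309% of all genes, formed 0 such runs. The number of runs expected from all genes was not computed, so nothing is read from this contrast. The longest run was GstD4, GstD5, GstD6 and GstD7 on chromosome arm 3R. Others were Hsp26 with Hsp27 on 3L, Cyp4p1 with Cyp4p3 on 2R, and Cyt-b5-r with CG17928 and Ugt37C2 on 2L. Some runs hold related genes, and whether RNA of a member reaches the probes of another was not tested.

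Antioxidant enzymes outside glutathione changed in few cases. Among 17 peroxiredoxins, thioredoxins, dismutases and related enzymes 3 rose and 2 fell, where 8.85% of all genes rose and 11.5% fell, with 1 lower without control replicate 1 and 3 lower without control replicate 3. Thioredoxin reductase Trxr1 rose by 0.37 ± 0.08 (adjusted p = 0.000404) from 12.20 to 12.54 in control. MsrA, the methionine sulfoxide reductase that is also known as an ecdysone-induced gene, read 11.07, 10.94, 10.86 and 10.98 in control and 9.76, 9.25, 9.33 and 9.38 with MMS, the third largest decrease (-1.53 ± 0.19, adjusted p = 2.42e-07). Of 23 genes for metallothioneins, iron and other metals, 6 rose and 2 fell, and without control replicate 1 the former were 2. The largest of these changes was the fall of Irp-1A, an iron regulatory protein (-0.71 ± 0.13, adjusted p = 0.000172).

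Chaperones of the cytosol rose in part of their families. The small heat-shock protein Hsp26, which holds unfolding proteins in solution, read 11.67, 11.51, 11.41 and 11.54 in control and 13.82, 13.75, 13.70 and 13.70 with MMS. Its change of 2.21 ± 0.14 (adjusted p = 1.40e-13) came on top of a high control level. Hsp27 rose by 1.48 ± 0.09 (adjusted p = 5.07e-14) and CG4461 by 0.58 ± 0.10, and 3 of 6 measured small heat-shock genes passed. Among 25 genes of the larger chaperones and co-chaperones, 5 rose (20%) and 2 fell (8%), where 8.85% of all genes rose and 11.5% fell. The BAG-domain co-chaperone starvin (stv) read 5.18 to 5.67 in control and 6.83 to 7.0 with MMS (1.47 ± 0.20, adjusted p = 1.72e-06), Hsp68 rose by 0.84 ± 0.17 and DnaJ-1 by 0.61 ± 0.11, and CG6693 fell by 0.64 (SE 0.09). The Hsp70 copies were not analysed here, and without control replicate 1 the list held 1 decrease and without MMS replicate 1 it held 4. Of 27 endoplasmic reticulum chaperones and stress sensors, 8 were higher (29.6%) and 3 lower (11.1%), the latter close to the share of all genes. There were 4 higher without control replicate 1, 1 lower without MMS replicate 2 and 5 lower without control replicate 3. Cnx99A, a calnexin, rose by 0.68 ± 0.14 (adjusted p = 0.00042), the secreted stress factor Manf by 0.64 ± 0.13 (adjusted p = 0.000343) and the stress sensor PEK, the fly PERK, by 0.91 ± 0.19 (adjusted p = 0.000689), whereas the disulphide isomerase-like prtp fell by 0.31 (SE 0.07, adjusted p = 0.00126).

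Genes tied to the phosphorylation of eIF2 and to amino-acid supply moved both ways, with 9 of 25 higher and 6 lower. These were 36% and 24%, where 8.85% of all genes rose and 11.5% fell. The amino-acid transporter pathetic (path) read 9.46, 9.68, 9.93 and 10.02 in control and 10.85, 11.28, 11.13 and 11.18 with MMS (1.34 ± 0.15, adjusted p = 4.49e-08). PPP1R15, the regulatory subunit that directs a phosphatase to eIF2, rose by 0.64 ± 0.09 (adjusted p = 3.44e-06). The 2 glutamine synthetases changed in opposite directions. Gs2, the cytosolic enzyme, read 5.74, 6.09, 6.09 and 6.05 in control and 6.87, 7.05, 7.07 and 7.08 with MMS (1.03 ± 0.11, adjusted p = 1.80e-08), while Gs1, the mitochondrial enzyme, went from 11.17, 11.01, 10.59 and 10.87 to 9.90, 9.58, 9.76 and 9.76 (-1.16 ± 0.13, adjusted p = 8.71e-08). Neither pair of groups overlapped. Shmt, which passes carbon from serine to folate, fell by 0.67 (SE 0.09, adjusted p = 2.81e-06).

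Among 40 translation initiation factors 7 rose and 8 fell, where 8.85% of all genes rose and 11.5% fell, and a single factor changed by more than 2-fold. eIF4B, which helps the helicase eIF4A to open the leader of mRNAs, read 7.10, 7.57, 8.11 and 7.54 in control and 9.23, 10.09, 10.11 and 9.91 with MMS (2.26 ± 0.22, adjusted p = 3.09e-09). Its other probe sets gave 2.41 and 2.55, and the fourth, dim at 4.33 on average, gave 0.03. eIF5 (0.94 ± 0.17) and eIF3j (0.58 ± 0.09) also rose, and the largest decrease of the list was eIF2Bbeta (-0.35 ± 0.11). The counts of this list moved with single arrays, to 3 higher and 2 lower without control replicate 1. Of 32 aminoacyl-tRNA synthetases 9 fell and 1 rose, led by the mitochondrial TyrRS-m (-0.83 ± 0.10, adjusted p = 1.51e-07). Among 69 mitochondrial ribosomal proteins 13 fell and 1 rose (median over all 69 of -0.24), with 8 lower without control replicate 1, 2 or MMS replicate 2. Of the 41 measured cytosolic ribosomal proteins 1 rose and 3 fell, and of the 43 proteasome genes 4 rose, among them Rpn6 (0.42 ± 0.07), and 0 fell, with 1 of these decreases and 2 of these increases without control replicate 1. The 9.3% of proteasome genes that rose was close to the share of all genes. The 30 nucleolar and ribosome-biogenesis genes split into 4 higher and 5 lower, with 3 lower without control replicate 1. Uhg3 and Uhg4, host genes of small nucleolar RNAs that were picked after their values were seen, rose by 1.68 ± 0.24 and 1.28 ± 0.27.

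**Figure D3:**
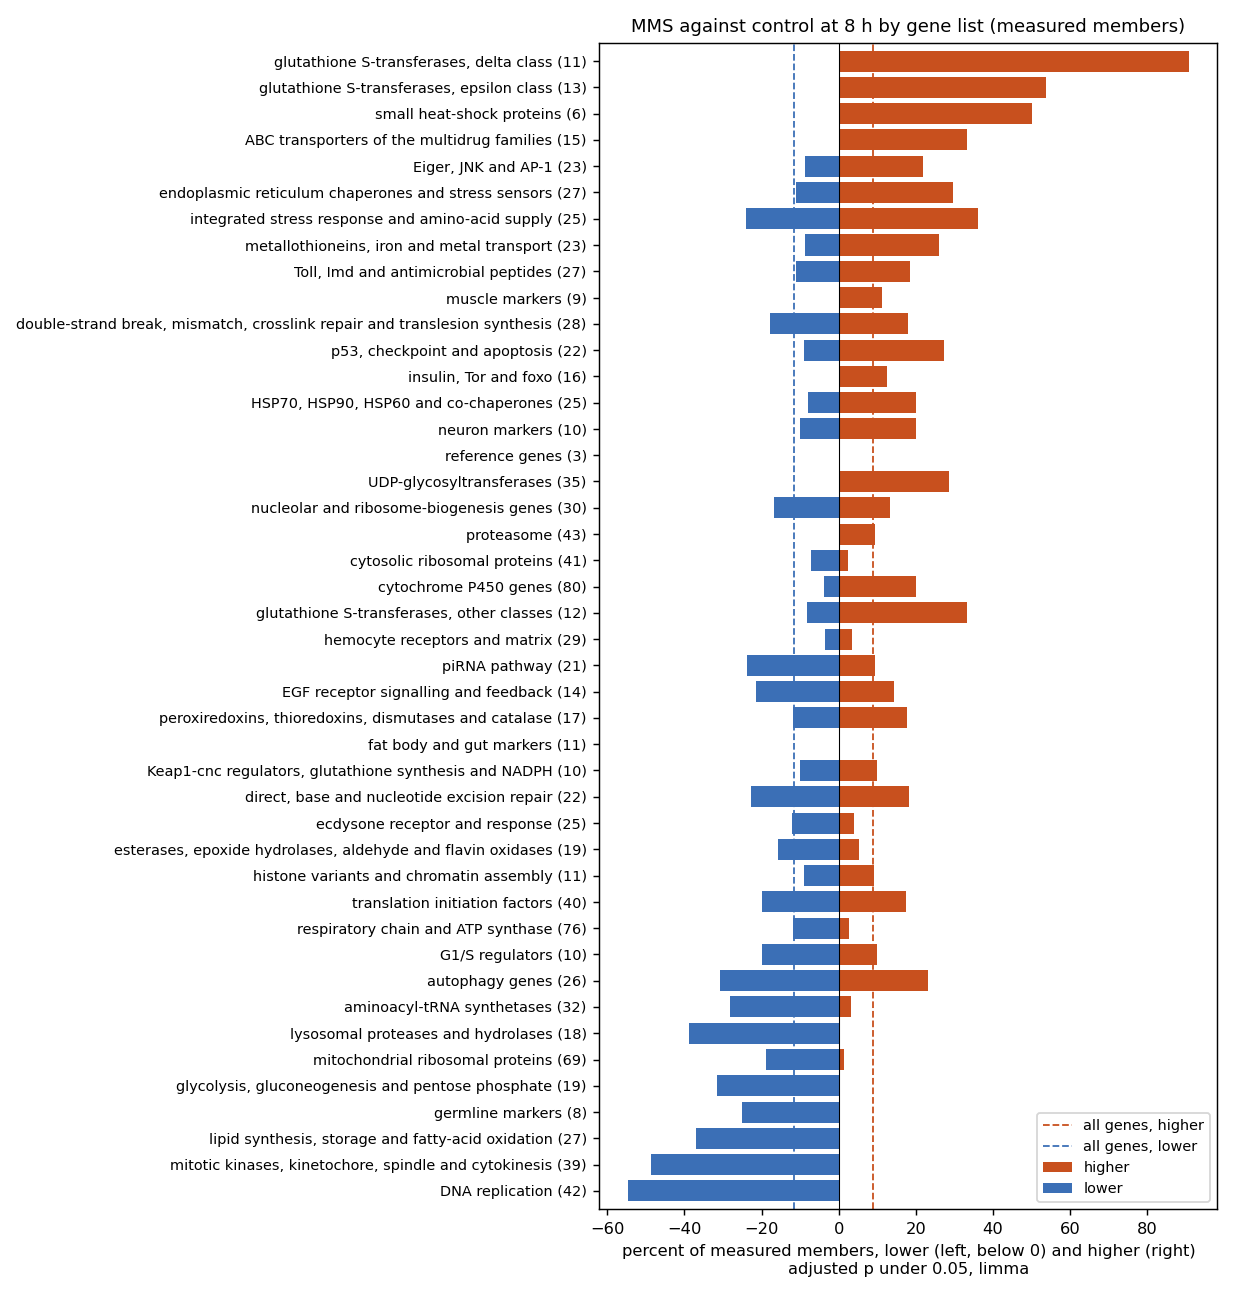
Percent of the measured members of 44 gene lists (number in brackets) that were higher (right) or lower (left) at 8 h at an adjusted p under 0.05. Dashed lines give the percent over all genes, 8.85% higher and 11.5% lower, and the lists are ordered by their median change from DNA replication at the bottom to the delta-class glutathione S-transferases at the top.

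About as many genes of replication and mitosis fell as did not pass the test. Of 42 DNA replication genes 23 fell and 0 rose, with a median change of -0.46 over all 42 where 11.5% of all genes fell, and 0 of these decreases reached 2-fold. Mcm3, a subunit of the replicative helicase, read 10.88, 10.76, 10.60 and 10.82 in control and 10.14, 9.54, 9.71 and 9.77 with MMS (-0.98 ± 0.16, adjusted p = 2.64e-05). MMS replicate 1 was the highest of the MMS arrays and still below every control array. PolD2, a subunit of DNA polymerase delta, fell by 0.90 (SE 0.13, adjusted p = 3.36e-06), the primase partner PolA2 by 0.84 (SE 0.13, adjusted p = 8e-06) and the origin subunit Orc1 by 0.88 (SE 0.13, adjusted p = 9.6e-06). Of 39 mitotic genes 19 fell and 0 rose (median over all 39 of -0.35). The 2 that fell at least 2-fold both act in cytokinesis: tum, the RacGAP of the central spindle, read 11.04, 10.96, 10.81 and 10.98 in control and 10.16, 9.72, 9.92 and 9.91 with MMS (-1.02 ± 0.13, adjusted p = 3.18e-07), and its partner RhoGEF pbl changed by -1.01 ± 0.13 (adjusted p = 4.58e-07). mars (-0.86 ± 0.10) and Ndc80 (-0.70 ± 0.10), proteins of the spindle and the kinetochore, followed. Among 10 G1/S regulators 1 rose (10%) and 2 fell (20%), among them Cdk4 (-0.37 ± 0.07). Of 11 histone variants and assembly factors 1 rose and 1 fell (9.09% each). Save for the G1/S decreases, these shares were close to the 8.85% of all genes that rose and the 11.5% that fell. Without control replicate 1 these 2 lists held 0 increases and 1 decrease each.

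Genes of the damage response and of DNA repair moved in both directions. Gadd45, a stress-responsive gene that mammals induce after DNA damage, read 9.30, 9.10, 9.46 and 9.31 in control and 10.61, 10.97, 10.82 and 10.83 with MMS (1.51 ± 0.12, adjusted p = 7.44e-11). Of 22 genes of p53, checkpoints and apoptosis, 6 were higher (27.3%) and 2 lower (9.09%), where 8.85% of all genes rose and 11.5% fell. Without control replicate 1 or 2 or MMS replicate 2, 3 or 4, there were 3 higher. nbs, a subunit of the complex that senses DNA ends, rose by 0.82 ± 0.15 (adjusted p = 0.000175), and Debcl, a Bcl-2 family member that promotes death, fell by 0.53 (SE 0.08, adjusted p = 6.43e-06). The apoptosome gene Dark rose by 0.65 ± 0.17 on its brighter probe set and by 0.17 ± 0.31 on the other. Of 22 genes of direct, base and nucleotide excision repair 4 rose (18.2%) and 5 fell (22.7%). Among them were the nuclease Ercc1 (0.62 ± 0.13) and the flap nuclease Fen1 (-0.73 ± 0.12). Of 28 genes for other repair and translesion synthesis 5 rose (17.9%) and 5 fell (17.9%). The latter included mus81 (-0.61 ± 0.09) and its partner mms4 (-0.79 ± 0.17), and the former PolZ1 (0.66 ± 0.15). Without control replicate 1 the counts were 2 higher and 4 lower for excision repair and 2 and 3 for the other repair genes, and without MMS replicate 1 excision repair held 8 decreases. The 2 genes past 2-fold that act on uracil in DNA were picked after their values were seen and moved apart. The glycosylase Smug fell by 1.07 (SE 0.20, adjusted p = 0.000117) and the uracil-DNA nuclease Ude rose by 1.13 ± 0.13 (adjusted p = 4.34e-08).

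In the JNK branch of stress signalling the ligand rose. Eiger (egr), the fly tumour necrosis factor, read 6.19, 6.59, 6.78 and 6.72 in control and 7.46, 7.87, 7.79 and 7.77 with MMS (1.15 ± 0.12, adjusted p = 1.67e-08), and its dimmer probe set gave 0.37 ± 0.17 (adjusted p = 0.142). The adaptor Traf4 rose by 1.04 ± 0.14 (adjusted p = 9.45e-07) on the brighter of its 2 probe sets. Of the 23 genes of this list 5 rose and 2 fell, the latter Tab2 (-0.63 ± 0.13) and cher (-0.63 ± 0.15). In the Toll and Imd list 5 of 27 rose and 3 fell, the latter at 11.1% close to the 11.5% of all genes that fell, while 8.85% rose. PGRP-LF, an inhibitor of the Imd pathway, rose by 0.80 ± 0.14 and the intracellular receptor PGRP-LE by 0.62 ± 0.09, whereas the receptor Toll (Tl) fell by 1.05 (SE 0.23, adjusted p = 0.000918) and its kinase pll by 0.55 (SE 0.11). ImpL2, a secreted protein that binds insulin-like peptides, rose by 1.32 ± 0.19 (adjusted p = 4.78e-06) and was, with scyl, 1 of 2 changes among 16 genes of insulin, Tor and foxo signalling. It also belongs to the ecdysone list, where it was the only increase beside 3 decreases among 25 genes. Of 14 genes of EGF receptor signalling 2 rose and 3 fell, and of 21 piRNA genes 2 rose and 5 fell, led by fs(1)Yb (-0.97 ± 0.12, adjusted p = 5.97e-07). Single arrays moved these counts too, to 1 increase in the insulin list and 0 in the piRNA list without control replicate 1, to 5 and 4 without control replicate 3, and to 0 decreases in the EGF receptor list without control replicate 4.

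Genes of sugar and lipid metabolism and of the lysosome that passed the test all fell. Over all genes 8.85% rose and 11.5% fell. Pepck1, the enzyme that commits carbon to gluconeogenesis, had the second largest decrease, with 10.40, 10.41, 10.40 and 10.52 in control and 9.07, 8.74, 8.88 and 8.83 with MMS (-1.55 ± 0.10, adjusted p = 2.31e-13). Of 19 genes of sugar metabolism 6 fell and 0 rose, but 3 fell without control replicate 1. Of 27 genes of lipid metabolism 10 fell and 0 rose, among them the nuclear receptor Hnf4 (-0.97 ± 0.13, adjusted p = 7.18e-07), the acyl-CoA synthetase pdgy (-0.93 ± 0.10, adjusted p = 4.75e-08) and the brummer lipase bmm (-0.77 ± 0.17, adjusted p = 0.000726). Of 18 lysosomal genes 7 fell and 0 rose, led by the hexosaminidase Hexo2 (-0.82 ± 0.11). Of 76 genes of the respiratory chain 9 fell and 2 rose, a share of 11.8% lower that was close to the 11.5% of all genes, with 5 lower without control replicate 1 and 5 higher without control replicate 3. The 26 autophagy genes held 6 increases (23.1%) and 8 decreases (30.8%), with 3 increases without control replicate 1. ref(2)P, the fly p62, which carries ubiquitinated cargo to autophagosomes, read 10.81, 10.68, 10.84 and 10.76 in control and 12.12, 12.20, 12.09 and 12.14 with MMS (1.36 ± 0.10, adjusted p = 9.12e-12), and the kinase Pink1 fell by 0.66 (SE 0.11).

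The remaining genes among the largest changes belong to no list. CG6770, listed with the synonym p8 after a small stress-induced nuclear protein of mammals, read 8.05, 8.42, 8.73 and 8.44 in control and 10.44, 11.07, 10.81 and 11.15 with MMS (2.46 ± 0.16, adjusted p = 5.16e-13). Rnf11, a RING-finger protein, rose by 2.14 ± 0.23 on its brighter probe set and by 0.48 ± 0.15 on the other. Cyt-b5-r, a cytochrome b5-related gene, rose by 1.99 ± 0.12, and CG13893 (1.94 ± 0.15), CG42240 (1.92 ± 0.19) and Sdb (2.02 ± 0.36) completed the 12 largest increases. At the other end CBP, a calcium-binding protein, fell most, from 8.44, 7.94, 7.70 and 8.27 to 6.04, 6.33, 6.47 and 6.64 (-1.72 ± 0.16, adjusted p = 7.48e-10). The adaptor arouser (aru) changed by -1.41 ± 0.10, su(r), the enzyme that begins pyrimidine breakdown, by -1.36 ± 0.14, and the macrophage regulator atossa (atos) by -1.14 ± 0.18. The Notch target E(spl)m3-HLH read 7.47 to 8.14 in control and 6.43 to 6.69 with MMS (-1.21 ± 0.13, adjusted p = 4.43e-08). CG33474 (-1.37 ± 0.12), CG5254 (-1.29 ± 0.13) and CG4570 (-1.26 ± 0.16) were the others.

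Few markers of any cell type examined passed the test, and most markers of cells other than hemocytes had a control mean under 5. Over all genes 8.85% rose and 11.5% fell. Of 29 hemocyte receptor and matrix genes 1 rose (crq, 0.45 ± 0.16, adjusted p = 0.0445) and 1 fell (SPARC, -0.30 ± 0.08, adjusted p = 0.00611), and their mean value lay between 8.15 and 8.43 on the control arrays and between 8.30 and 8.36 on the MMS arrays. The 11 fat body and gut markers, 9 of them with a control mean under 5, held 0 changes, and 0 of the 3 reference genes passed. The muscle markers, all 9 with a control mean under 5, held 1 increase (bt, 0.59 ± 0.10). They averaged 3.73 to 3.78 in control and 3.88 to 3.96 with MMS. Neuron markers (10 genes, 6 with a control mean under 5) averaged 4.62 to 4.70 in control and 4.72 to 4.86 with MMS. Of them 2 were higher (20%) and 1 lower (10%). Their increase of largest size, brp (0.89 ± 0.13), rested on 1 of 4 probe sets, and another gave -0.29 ± 0.10 (adjusted p = 0.0451). Germline markers (8 genes, 5 with a control mean under 5) averaged 5.56 to 5.68 and 5.39 to 5.49, with 2 lower (25%). The averages of the muscle, neuron and germline markers thus did not overlap between the groups. Without control replicate 1 there were 0 hemocyte and 1 neuron increases and 0 neuron and germline decreases, without control replicate 3 there were 3 hemocyte increases and 3 germline decreases, and without MMS replicate 2 there were 2 muscle increases. The part of other cell types in the changes was not tested.

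The genes called at 8 h were also compared under the same contrast at the other times. None of the 158 genes passed at 1 h, where the changes of the 121 higher genes ran from -0.32 to 0.83 and had a median of 0.08. The effect at 8 h differed from that at 1 h for 90 of the 121 and 33 of the 37 (interaction contrast, adjusted p under 0.05). As these genes were picked for their effect at 8 h, nothing is read from this against the 6.13% of all genes, nor from the counts for 24 h against theirs. At 24 h, 97 of the 121 were still higher and 35 of the 37 still lower, and 0 had turned. For 40 of the 121 and 10 of the 37 the effects at 8 and 24 h differed, where 7.98% of all genes did. Larger at 24 h were 34 of the former and 5 of the latter, among them CG11893 (5.01 ± 0.16 at 24 h, adjusted p of the difference 3.02e-09), CG42240 (4.47 ± 0.19) and Hsp26 (3.84 ± 0.14). GstD2 was much the same at both times (3.3 and 3.53, adjusted p of the difference 0.697). Since RNA quality set all 8 h arrays apart from those of 1 and 24 h, time and quality cannot be told apart in these differences.

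A larger effect at 8 h than at 24 h was found for 6 of the higher and 5 of the lower genes. CG6770 went from 2.46 at 8 h to 1.44 ± 0.16 at 24 h (adjusted p of the difference 0.00355), and CG13658 from 1.87 to 1.07 ± 0.10 (0.000129) and Ugt35C1 from 1.72 to 1.02 ± 0.12 (0.00754) alike. CG14050 read 4.96, 5.62, 5.44 and 5.46 in control and 6.08, 6.47, 6.52 and 6.81 with MMS at 8 h, and its change of 1.10 ± 0.12 stood against 0.00 ± 0.12 at 24 h (adjusted p of the difference 5.21e-05). CG10973 and mol did not pass at 24 h either. On the lower side these were CG33474 (-0.32 ± 0.12 at 24 h), CG5254 (-0.36 ± 0.13), E(spl)m3-HLH (-0.17 ± 0.13), su(r) (-0.65 ± 0.14) and MsrA (-0.72 ± 0.19, adjusted p of the difference 0.0496). At 72 h, 83 of the 121 were higher and 7 lower, the latter including GstD2 (-2.19 ± 0.18) and GstD5 (-0.67 ± 0.18). Of the 37, 15 were lower at 72 h and 6 higher, among the latter Gs1 (1.01 ± 0.13).

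**Figure D4:**
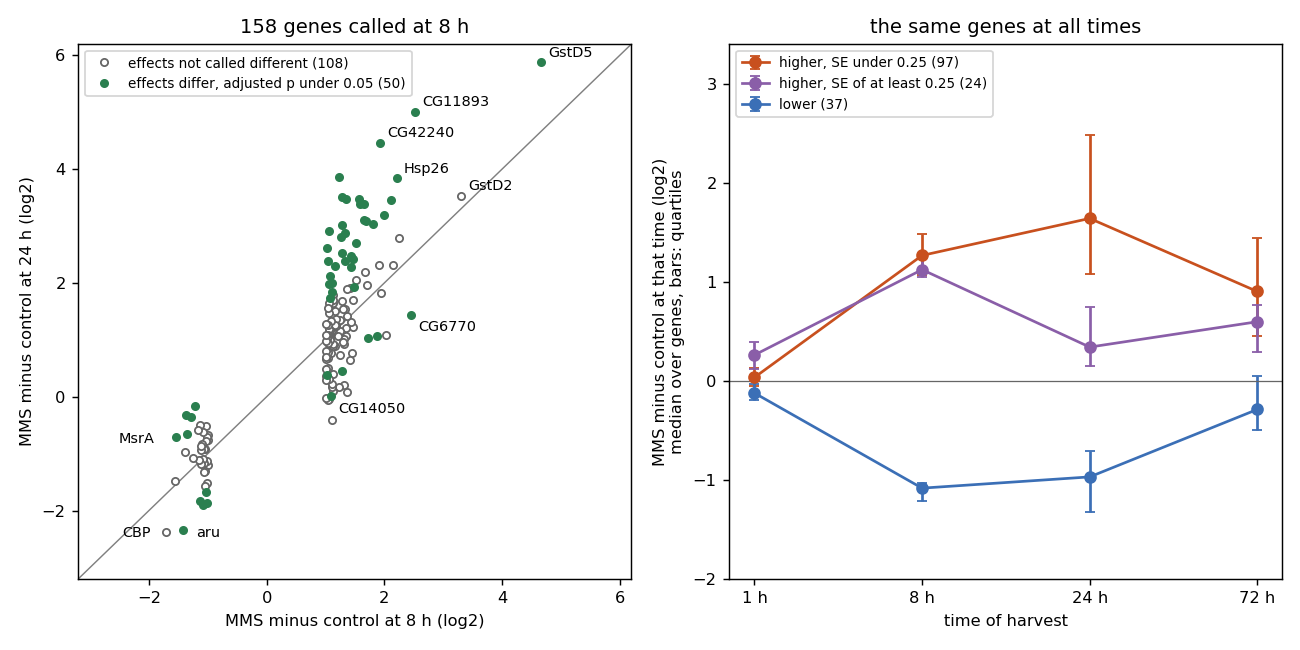
Left, MMS effect at 24 h (y axis, log2) against that at 8 h (x axis) for the 158 genes called at 8 h, with those whose effects differed filled and the line of equal effects drawn. Right, median effect at 1, 8, 24 and 72 h with quartiles for 97 and 24 higher genes, split at an SE of 0.25, and for the 37 lower genes, and the 24 had a median of 0.34 at 24 h against 1.64 for the 97.

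Some of the higher genes had a large SE, which reflects the spread within all 9 groups and not at 8 h alone. Uhg4 was among these with SDs of 0.16 in control and 0.07 with MMS at 8 h. For 24 of the 121, chosen after the values were seen by an SE of at least 0.25, the control arrays themselves lay far apart, at -1.42, -0.60, 0.01 and -0.38 on average relative to the mean of the 8 arrays, and MMS replicate 1 stood at 0.10 against 0.69 to 0.80 for the other MMS arrays. The group included trx, the Trithorax histone methyltransferase (6.57, 7.90, 8.70 and 8.08 in control, 8.40, 9.15, 9.05 and 9.12 with MMS, 1.12 ± 0.41, adjusted p = 0.0485), the RNA-binding protein Imp (1.13 ± 0.36), Marf1 (1.37 ± 0.33) and the Ras regulator Nf1 (1.03 ± 0.35). In trx, Imp and Marf1 control replicate 3 was above MMS replicate 1, so the groups overlapped, and they did not for 13 of the 24. Without control replicate 1, 5 of the 24 and 74 of the other 97 kept both thresholds. At 24 h 4 of the 24 and 93 of the 97 passed, which the split by SE favours, since the fit gives a gene the same SE at every time. The mean 3' to 5' difference of control replicates 1 to 4 was 1.57, 1.54, 1.42 and 1.67, and its part in this spread was not tested.

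**Figure D5:**
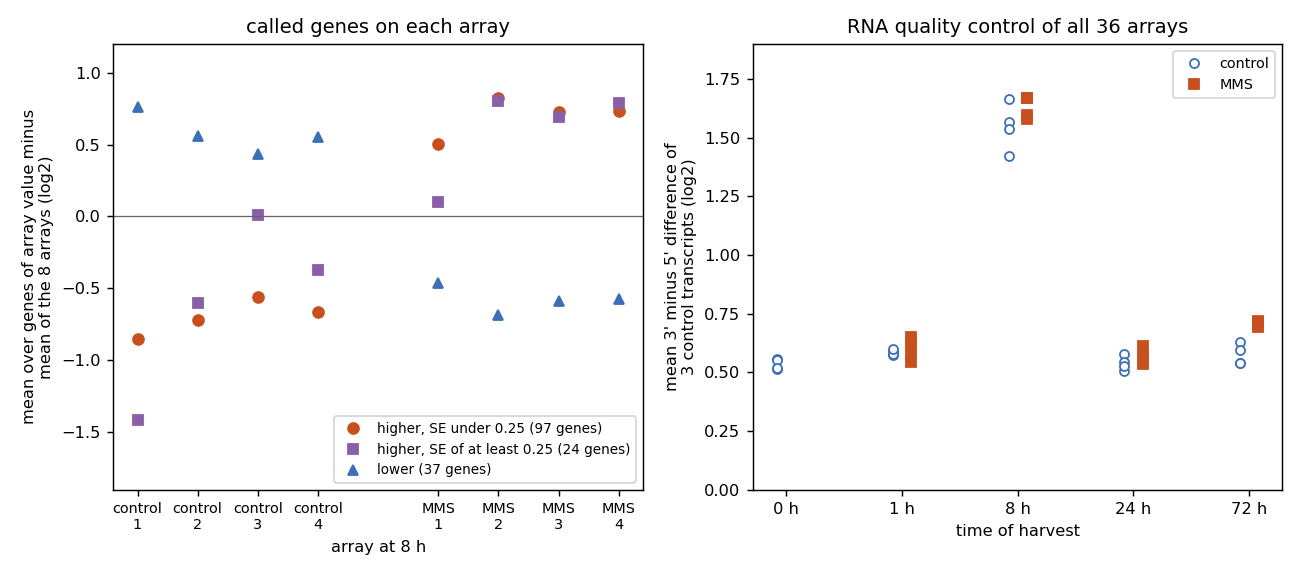
Left, mean over genes of each array's value minus the mean of the 8 arrays (y axis, log2) for the genes called at 8 h, with control replicate 1 at -1.42 for the 24 higher genes of large SE (squares). Right, mean 3' minus 5' difference of 3 control transcripts (y axis, log2) on all 36 arrays by time, between 1.42 and 1.67 at 8 h and at most 0.72 elsewhere.

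Where a called gene had several probe sets, these often disagreed, and the differing probe set was often dim. Of 15 such genes, 9 had probe sets of 1 sign (60.0%, against 48.8% of all 1094 genes with several probe sets) and 3 had every probe set past the adjusted p in the same direction. These 3 were CHKov1 (1.42 and 1.42), Nf1 (1.03, 0.76 and 0.98) and Rnf11. Imp was called in both directions, with 1.13, 1.29 and 1.52 on 3 probe sets and -0.30 ± 0.09 (adjusted p = 0.0224, over all probe sets) on a dim one. For 10 genes, L, CG7720, CG3764, Tl, Traf4, egr, Marf1, Myo95E, CG42588 and unk, only the brightest probe set passed, at -1.06, -1.13, -1.05, -1.05, 1.04, 1.15, 1.37, 1.02, 1.32 and 1.00. The second probe set of unk gave 0.10 ± 0.24 at a mean of 7.17, and that of Marf1 0.11 ± 0.11 at 6.68. That of egr had a mean of 5.45. The other probe sets of L lay between 3.73 and 3.88, and those of CG42588 between 3.62 and 4.20. Those of CG7720, CG3764, Tl, Traf4 and Myo95E had means of 3.25, 4.32, 3.45, 3.47 and 4.37.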

How the data were processed

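RNA of Kc167 cells was hybridised to Affymetrix Drosophila Genome 2.0 arrays. The deposited log2 values, 1 for each probe set on an array, came from RMA (background correction, quantile normalization, probe summary) per the submitters' processing notes in a version that the sources do not state. Scaling all arrays to a common distribution hides any change in total RNA. The table held 18952 probe sets, with values from 2.67 to 14.74, and 0 columns had no sample. Arrays have no sequencing depth, and their number limits the precision. Genes were named through the platform annotation and RefSeq's gene table (assembly Release 6 plus ISO1 MT), used only for names and neighbours: 13647 probe sets had 1 gene, 402 several, 4720 none, 183 were controls and 103 identifiers were not in the table. The probe set with the highest mean stood for each of 11982 genes. limma 3.58.1 in R 4.3.3 fitted 9 group means over 36 arrays (27 residual degrees of freedom), and p-values were adjusted by Benjamini-Hochberg over all genes. limma replaced the permutation analysis that the array service ran for the study. The fit was tested on simulated data.

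The members, the 44 gene lists, the rule for named genes and the tests were chosen with earlier results of these data known. Named were the 12 largest increases and decreases past both thresholds without overlap of the groups, up to 4 members per list with the smallest adjusted p, and a set of regulators, and other genes were added after their values were seen. Xbp1, Xrp1 and Myc were not analysed here, nor were promoter motifs. Array quality was compared by exact permutation. Alternatives were other scalings, filters, probe-set summaries and variance priors, the 8 arrays alone, the replicate number as a block, a quality covariate and single arrays left out.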

Additional observations from a re-analysis of the deposited data

Results flagged for a closer look

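In 46 genes the value of a single array was compared with the other 3 of its group, which made 92 groups, and chance alone sets an array apart in about 1 group in 20. An array stood apart in 7 groups. In control these were Pepck1 in replicate 4 (10.52 against 10.40 to 10.41), atos in replicate 1 (8.31 against 7.84 to 7.92) and Gs2 in replicate 1 (5.74 against 6.05 to 6.09). With MMS they were CG4570 in replicate 1 (8.62 against 8.32 to 8.34), Ugt302K1 in replicate 2 (7.77 against 7.42 to 7.47), Gclc in replicate 2 (11.14 against 11.02 to 11.03) and Gs2 in replicate 1 (6.87 against 7.05 to 7.08). In none of these did the array cross to the other group.

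Among the 24 largest changes the effect at 8 h differed from that at 24 h by the interaction contrast of limma for 13 genes. Of all genes 7.98% differed, but these 24 were picked for their effect at 8 h, so nothing is read from this share. The difference, 8 h minus 24 h, was -1.22 for GstD5 (adjusted p = 0.00164), -2.48 for CG11893, 1.02 for CG6770, -1.63 for Hsp26 (adjusted p = 4.6e-07), -1.35 for GstD4, -1.20 for Cyt-b5-r (adjusted p = 5.71e-06) and -2.54 for CG42240. Among the decreases it was -0.82 for MsrA, 0.93 for aru (-2.34 at 24 h), -1.06 for CG33474, -0.71 for su(r), -0.92 for CG5254 and -1.04 for E(spl)m3-HLH. The quality of the 8 h arrays cannot be told apart from time here.

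Probe sets that name no single gene were fitted apart. Of all genes, 1.01% were at least 2-fold higher and 0.309% at least 2-fold lower, and neither share was exceeded among probe sets with no gene. At least 2-fold higher were 8 of 402 probe sets listed with several genes, the largest at 3.08, and 39 of 4720 listed with no gene, the largest at 2.68, and 1 of the latter was at least 2-fold lower (-1.15).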

How the results depend on the processing

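The counts of genes at least 2-fold higher and lower (121 and 37) stayed within 1.5 times under every alternative scaling, filter, probe-set summary and variance prior, with 110 to 121 higher and 33 to 40 lower. With the 3' to 5' difference as a covariate within 8 h there were 175 and 56, and without single arrays 80 to 163 and 26 to 52. The fall to 80 came without control replicate 1, and its cause was not tested. The mean 3' to 5' difference itself ranged from 0.04 to 0.12 without single arrays, and reached an exact permutation p of 0.0286 without control replicate 4. Of 3238 values of the named genes under alternatives 3072 kept their call, 156 lost it, 10 gained it and 0 reversed. Without replicate 1 of both groups, chosen after seeing the data, 103 and 37 genes passed, and with array weights, chosen alike, 117 and 45.

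The labels do not say that replicate numbers pair the samples. Same-numbered arrays correlated at 0.46, -0.03, 0.12 and 0.09 in their deviations from the group means, the first the highest of all pairs, but not every value was over 0.1 and not every array correlated best with its own number, so the numbers were not taken as pairs. With the replicate number as a block there were 121 and 37 genes over 36 arrays, and 122 and 37 within the 8 arrays, where the adjusted p of cnc was 0.0112.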
